A study of Mus musculus with 7 samples.

Results

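The glutathione and thiol redox enzymes were followed in RNA sequencing of whole mouse uterus. They were chosen by gene symbol alone: the cytosolic, kappa and microsomal glutathione S-transferases, the glutathione peroxidases, the peroxiredoxins and the thioredoxin reductases, together with Txn1, Txn2, Gclc, Gclm, Gss, Gsr, Nqo1, Hmox1, Cat, Sod1, Sod2 and Sod3. This gave 54 of the 24964 genes in the deposited table. The libraries came from mice 12 weeks old that were recorded as being in diestrus. The controls, 3 libraries numbered 1, 2 and 4, had the genotype Pgrcre/+, and the 4 others had Pgrcre/+Foxl2LsL/+ and are called Foxl2-LSL-labelled. All 7 libraries therefore share 1 Pgr-Cre allele, which places Cre recombinase under the progesterone receptor gene, so that recombination is limited to cells in which that gene has been active. The labels do not say whether a library is from 1 animal or a pool, so p-values measure the spread between these libraries.

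Glutathione is a tripeptide made in steps by glutamate-cysteine ligase (a catalytic subunit, Gclc, and a modifier subunit, Gclm) and glutathione synthetase (Gss). Glutathione S-transferases, or GSTs, join it to reactive compounds, glutathione peroxidases spend it on reducing peroxides, and glutathione reductase (Gsr) restores it with NADPH. Peroxiredoxins and thioredoxins form a parallel system on protein thiols. Many genes of both systems are known targets of the transcription factor NRF2, which binds an antioxidant response element with small MAF proteins.

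The RNA held the marks of uterus, with Pgr at a mean of 33.5 FPKM in controls and 25.4 FPKM in Foxl2-LSL-labelled libraries and Esr1 at 39.8 and 58.2 FPKM (fragments per kilobase of gene and per unit of library size). All 6 uterus markers looked at were present, but Hoxa10 (77.9 and 25.4 FPKM), Hoxa11 (51.9 and 12.0 FPKM) and Wt1 (47.2 and 23.9 FPKM) were called lower, Esr1 was called higher, and the sums of the list, 253 to 419 FPKM in controls and 225 to 241 in the others, did not overlap. Foxl2 itself, the gene for which the second allele is named, was at 11.1, 19.3 and 12.9 FPKM in controls 1, 2 and 4 and at 12.7, 14.3, 14.8 and 17.2 FPKM in Foxl2-LSL-labelled libraries 1 to 4. The groups overlapped (log2 fold change 0.06, SE 0.18, two-sided exact permutation p 0.857, where the smallest this design allows is 0.0571). Foxl2 thus did not set the labels apart, and all directions that follow rest on the labels alone. The libraries held 47800000 to 67300000 fragments, recovered from the FPKM values and rounded. Control 4 stood apart from the other controls: its summed FPKM over 5 smooth muscle markers was 1205 against 587 and 540, and over 3 cell cycle markers 46.0 against 106 and 91.1. Control 2 had the highest sum of 5 ovary and oviduct markers, 295 FPKM against 4.34 to 21.5 in all others. Nearly all of it was Ovgp1, at 291 FPKM in control 2. There Foxj1 was at 3.78 FPKM, and Amh, Fshr and Cyp19a1 were at or below 0.536 FPKM. Several markers moved with the labels. The cell cycle markers Mki67, Top2a and Cdk1 were all lower, and their sum was 46.0 to 106 FPKM in controls and 5.78 to 18.03 in the others. The sum of 5 stroma markers was 710 to 865 FPKM and 1247 to 1381, but its members differed in direction: Dcn was higher, Vim was lower, and Pdgfra, Lum and Vcam1 did not pass. The sum of 4 endothelium markers, all called lower, was 88.5 to 124 FPKM in controls and 56.5 to 63.4 in the others. That of 5 leukocyte markers was 25.7 to 36.6 and 39.5 to 77.1 FPKM, but its members differed. Csf1r and Itgam were called higher, and Cd68, Adgre1 and Ptprc did not pass. Ptprc had a negative log2 fold change of -0.155, and Itgam ranged from 2.93 to 17.97 FPKM within the Foxl2-LSL-labelled libraries. The part of all these markers in the members' changes was not tested.

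Genes with a mean of at least 1 FPKM over the 7 libraries were compared with limma on log2(FPKM + 1), on which scale every fold change below is given; low genes are understated by it. Of the 54 members, 47 passed this filter. Past a Benjamini-Hochberg adjusted p of 0.05 over all 13334 genes tested, 10 of the 47 were higher and 11 were lower in the Foxl2-LSL-labelled libraries. These shares, 21.3% and 23.4%, lay beside 16.7% higher and 23.9% lower among all genes, and 44.7% called in either direction beside 40.6%. The groups did not overlap in 24 of the 47, beside 47.6% of all genes tested. The members' median log2 fold change was 0.04 and that of all genes tested -0.05. A change of at least 1 on the log2 scale past the threshold was present in 7 members, 2 higher and 5 lower, beside 7.78% of all genes tested. The members' shares called and not overlapping thus lay near the background. The 7 of 47 with a change of at least 1 lay above the 7.78% of all genes, which was not tested. These 7 include Gstm6, which passed the filter only through the controls (means of 5.14 FPKM in controls and 0.937 FPKM in the others). They also include its chromosomal neighbours Gstm7, Gstm2 and Gstm1, so no excess is read from this share. What follows is about which members moved and which did not. In whole tissue, fewer cells of a type and less RNA per cell cannot be told apart.

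**Figure D1:**
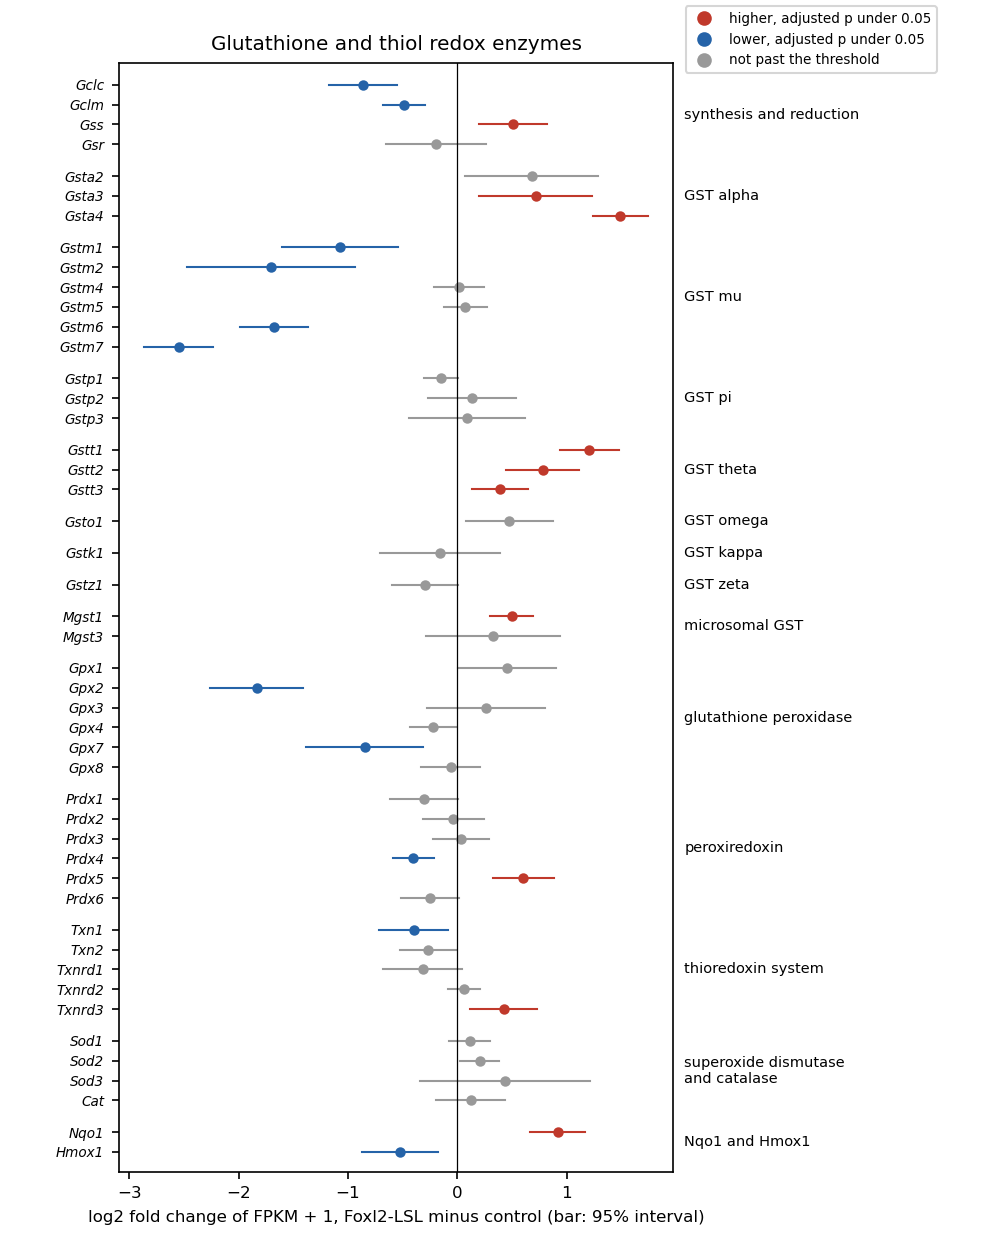
Log2 fold change of FPKM + 1 (Foxl2-LSL-labelled minus control) with its 95% interval for the 47 members tested, by role. Points are coloured by the limma call. The falls of 4 mu class genes and of Gpx2 and the rises of Gsta4 and Gstt1 lie farthest from 0. Among these mu class genes, Gstm6 passed the filter only through the controls.

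The largest change of all lay in the mu class of GSTs, whose 7 genes stand in a single cluster of 149 kb on mouse chromosome 3 (107895821 to 108044894, GRCm38 in GENCODE M21). In order along the chromosome they are Gstm5, Gstm7, Gstm6, Gstm3, Gstm2, Gstm1 and Gstm4, with Gstm5 on the plus strand and the others on the minus strand. Gstm7, Gstm2 and Gstm1 inside this run fell, and the genes at its ends did not pass the threshold. Gstm6 was also lower but passed the filter only through the controls. The 120 bases before each start are therefore shown, read 5′ to 3′ in chromosomal order. They are from RefSeq on GRCm38.p6, at the RefSeq start nearest to the GENCODE gene start. Capitals mark CG dinucleotides.
Gstm5, chr3:107895734-107895853, plus strand: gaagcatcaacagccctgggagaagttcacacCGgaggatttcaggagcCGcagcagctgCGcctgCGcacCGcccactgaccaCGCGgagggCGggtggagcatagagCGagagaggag
Gstm7, chr3:107931818-107931937, minus strand: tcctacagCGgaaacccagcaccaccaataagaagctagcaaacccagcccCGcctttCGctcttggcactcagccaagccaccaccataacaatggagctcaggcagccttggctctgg
Gstm6, chr3:107943735-107943854, minus strand: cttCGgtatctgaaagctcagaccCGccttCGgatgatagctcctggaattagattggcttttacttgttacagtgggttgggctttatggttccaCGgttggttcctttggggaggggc
Gstm3, chr3:107969175-107969294, minus strand: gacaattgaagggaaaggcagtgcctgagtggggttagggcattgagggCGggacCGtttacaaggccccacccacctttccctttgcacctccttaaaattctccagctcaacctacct
Gstm2, chr3:107986421-107986540, minus strand: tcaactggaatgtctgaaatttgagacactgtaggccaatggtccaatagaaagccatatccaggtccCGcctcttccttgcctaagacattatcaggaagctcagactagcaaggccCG
Gstm1, chr3:108017974-108018093, minus strand: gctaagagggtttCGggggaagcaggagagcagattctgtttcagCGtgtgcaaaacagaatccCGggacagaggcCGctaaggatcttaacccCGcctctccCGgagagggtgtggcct
Gstm4, chr3:108044860-108044979, minus strand: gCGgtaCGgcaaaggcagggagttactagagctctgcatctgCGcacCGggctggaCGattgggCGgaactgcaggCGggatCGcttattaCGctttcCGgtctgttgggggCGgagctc
The end genes held the most CG dinucleotides, 9 in Gstm5 and 11 in Gstm4. The inner genes held 3 (Gstm7), 4 (Gstm6), 2 (Gstm3), 2 (Gstm2) and 6 (Gstm1). Over all 32851 promoters of the RefSeq table the same 120 bases held a median of 3, with quartiles of 1 and 9. This is a description of 7 neighbouring sequences, with no test.

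Gstm7 fell most of all members. It was at 241, 167 and 210 FPKM in controls 1, 2 and 4 and at 29.9, 36.6, 37.4 and 32.6 FPKM in Foxl2-LSL-labelled libraries 1 to 4. All 4 of these lay far below all controls, and the control mean was 6.04 times theirs (log2 fold change -2.55, SE 0.14; limma with Benjamini-Hochberg adjusted p 9.66e-05). Its neighbour Gstm6, a much less abundant transcript, was at 4.997, 5.30 and 5.11 FPKM in controls and at 0.676, 1.42, 0.846 and 0.810 FPKM in the other group. The groups were again well apart, at a log2 fold change of -1.68 (SE 0.13; limma with Benjamini-Hochberg adjusted p 0.000249), which was -2.52 on recovered fragments with limma-voom. Its mean in the Foxl2-LSL-labelled libraries, 0.937 FPKM, lay under the filter level of 1 FPKM. Gstm6 passed the filter only through the controls, so its call, counted among the 11 lower members, is no support for a difference. The ratio of Gstm7 to Gstm6 was 40.3 ± 8.41 over the 3 controls and 38.6 ± 8.75 over the 4 others (SD), a difference smaller than the spread within either group.

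Gstm2 was at 165, 174 and 457 FPKM in controls 1, 2 and 4 and at 67.6, 73.9, 79.1 and 66.8 FPKM in Foxl2-LSL-labelled libraries 1 to 4. Gstm1, another of the abundant mu class enzymes, was at 203, 182 and 361 FPKM and at 100.4, 123, 126 and 102 FPKM. In both genes control 4 was far above the other controls, and controls 1 and 2 still lay above every Foxl2-LSL-labelled library. The log2 fold changes were -1.70 for Gstm2 (SE 0.33; limma with Benjamini-Hochberg adjusted p 0.00573) and -1.07 for Gstm1 (SE 0.23; limma with Benjamini-Hochberg adjusted p 0.00850). Without control 4 they were -1.23 and -0.77, and both kept their call, with adjusted p of 0.000225 and 0.00318 (limma, Benjamini-Hochberg). The smooth muscle marker sum was highest among controls in control 4, as given above, and was 916 to 1285 FPKM in the Foxl2-LSL-labelled libraries. In that list Myh11 was called higher (means of 107 FPKM in controls and 207 FPKM in the others), and Acta2, Actg2, Cnn1 and Des did not pass. The part of smooth muscle in the level of Gstm2 and Gstm1 was not tested.

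Gstm3 lay under the filter. It had 21, 11 and 21 fragments in controls 1, 2 and 4 and 0, 0, 2 and 0 fragments in Foxl2-LSL-labelled libraries 1 to 4, so that the groups did not overlap. When no filter was applied it passed the threshold as lower (limma with Benjamini-Hochberg adjusted p 0.00434). The end genes of the cluster gave a different picture. Gstm5 was at 54.5, 49.9 and 57.1 FPKM in controls and at 51.7, 54.3, 61.3 and 59.7 FPKM in Foxl2-LSL-labelled libraries, and the groups overlapped. Its log2 fold change was 0.07, with a 95% interval of -0.13 to 0.27. Gstm4 was at 6.37, 6.38 and 7.36 FPKM against 6.61, 6.18, 7.95 and 6.47 FPKM, with a log2 fold change of 0.02 and an interval of -0.21 to 0.24; this sign turned when FPKM were rescaled to a common sum. The intervals of both genes leave out a fall of the size seen in Gstm7, Gstm2 or Gstm1.

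Shared sequence limits how finely reads of this family can be assigned. Of the 50-base windows of each gene's coding transcripts in GENCODE M21, 28.8% of those of Gstm3, 19.9% of Gstm1, 9.74% of Gstm6 and 8.30% of Gstm2 also occurred in another gene. The share was 0.532% for Gstm7 and 0% for Gstm4 and Gstm5. The Gstm1 windows were shared mostly with the pseudogene Gstm2-ps1 (14.9%), and how the deposited values treat such reads is not given in the sources used here.

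**Figure D2:**
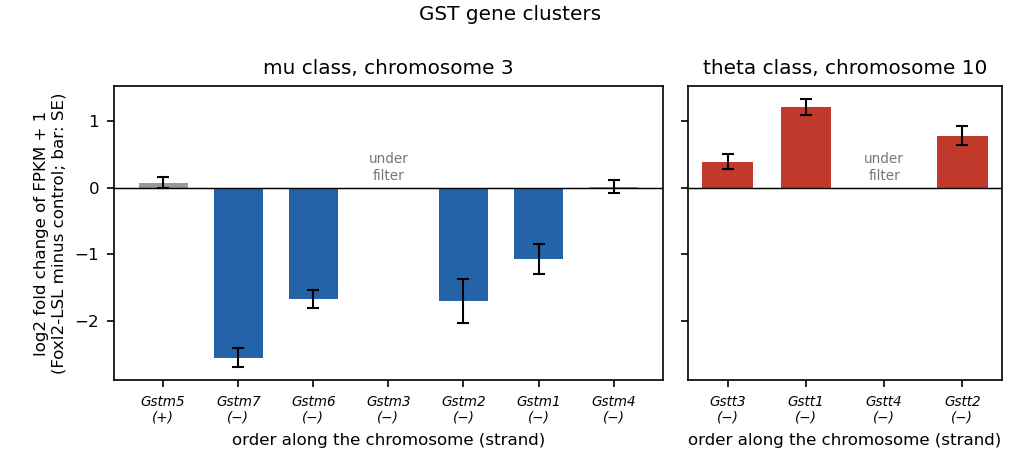
Log2 fold change of FPKM + 1 (Foxl2-LSL-labelled minus control, with SE) for the GST genes of the mu cluster on chromosome 3 and the theta cluster on chromosome 10, in chromosomal order with their strand. Gstm7, Gstm6, Gstm2 and Gstm1 lie below 0 between Gstm5 and Gstm4, and the 3 theta genes tested lie above 0. Gstm3 and Gstt4 were under the filter, and Gstm6 passed it only through the controls.

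The theta class of GSTs, enzymes that act on small halogenated compounds and peroxides, moved the other way. Its 4 genes lie within 63.3 kb of chromosome 10 (75774115 to 75837424, GRCm38), and the 3 that passed the filter were all higher past the threshold. Gstt1 was at 14.005, 18.9 and 14.4 FPKM in controls 1, 2 and 4 and at 37.8, 41.7, 35.1 and 35.3 FPKM in Foxl2-LSL-labelled libraries 1 to 4. Every library of the second group was above every control, by a log2 fold change of 1.21 (SE 0.12; limma with Benjamini-Hochberg adjusted p 0.000454). Gstt2 followed at a log2 fold change of 0.78 (15.3 ± 2.54 FPKM in 3 controls and 27.0 ± 4.17 FPKM in the 4 others, SD; limma with Benjamini-Hochberg adjusted p 0.00486). Gstt3 had a smaller change of 0.39 (limma with Benjamini-Hochberg adjusted p 0.0257). It lost its call in fits without control 2 (0.32), control 4 (0.37), Foxl2-LSL 1 (0.32) or Foxl2-LSL 3 (0.39), where the adjusted p was 0.0504 to 0.0939 (limma, Benjamini-Hochberg). Gstt4 never exceeded 14 fragments in a library.

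In the alpha class Gsta4, an enzyme with high activity toward aldehydes from lipid peroxidation, rose most of all members. It was at 28.9, 32.9 and 36.3 FPKM in controls 1, 2 and 4 and at 89.9, 97.2, 105 and 82.6 FPKM in Foxl2-LSL-labelled libraries 1 to 4. The groups were far apart, with a ratio of means of 2.87 (log2 fold change 1.49, SE 0.11; limma with Benjamini-Hochberg adjusted p 0.000174). None of its 50-base windows occurred in another gene. The other alpha genes were scarce. Gsta3 passed the threshold at a log2 fold change of 0.72 (1.03 ± 0.757 FPKM in 3 controls, 2.21 ± 0.226 FPKM in the 4 others, SD). On recovered fragments with limma-voom the change was 1.34, and with array weights 0.32. Its call was lost in 10 of 17 alternatives, among them the fits without control 1 (0.50), control 4 (0.66) or any single Foxl2-LSL-labelled library (0.69 to 0.75), and its adjusted p over the alternatives was 0.00524 to 0.189 (limma, Benjamini-Hochberg). Gsta2 ranged from 0.498 to 2.10 FPKM in controls and from 2.09 to 3.62 FPKM in the others, and overlapped between the groups. It passed the threshold only after quantile normalization and without control 4, where its log2 fold change was 0.88 against 0.68. Gsta1 had at most 4 fragments in a library, and 82.9% of its windows also occur in the gene Gm3776.

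Gsto1, an omega class enzyme that reduces mixed disulfides and dehydroascorbate, was the most abundant member in both groups. It was at 510.1, 336 and 381 FPKM in controls 1, 2 and 4 and at 496, 586, 504 and 676 FPKM in Foxl2-LSL-labelled libraries 1 to 4. Control 1 overlapped the second group, and the log2 fold change of 0.48 did not pass the threshold (SE 0.17; limma with Benjamini-Hochberg adjusted p 0.0564). Without control 1 it was 0.65 (limma with Benjamini-Hochberg adjusted p 0.0176). Its rare relative Gsto2 lay under the filter, with 25, 40 and 39 fragments in controls and 71, 60, 62 and 50 in the others. The groups did not overlap, and it was higher past the threshold when no filter was applied (limma with Benjamini-Hochberg adjusted p 0.00658).

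The microsomal enzyme Mgst1, a membrane-bound GST with peroxidase activity, was at 88.4, 71.3 and 80.3 FPKM in controls and at 114, 112, 117 and 109 FPKM in the Foxl2-LSL-labelled libraries. All 4 were above all controls, at a log2 fold change of 0.50 (SE 0.08; limma with Benjamini-Hochberg adjusted p 0.00333). Mgst3 ranged more widely in the second group, from 12.8 to 31.9 FPKM around controls of 15.6 to 18.1 FPKM, and did not pass (log2 fold change 0.33). It passed without Foxl2-LSL 2, at 0.56 (limma with Benjamini-Hochberg adjusted p 0.0412). Mgst2 had 13 to 18 fragments in controls and 22 to 28 in the others. It was higher past the threshold without a filter (limma with Benjamini-Hochberg adjusted p 0.0151).

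Among the remaining transferases none passed the threshold. Gstp1, the main pi class enzyme here, had a mean of 74.8 ± 2.20 FPKM over the 3 controls and of 67.4 ± 3.45 FPKM over the 4 others (SD), with a log2 fold change of -0.15 and an interval of -0.30 to 0.01. Gstp1 shares 51.0% of its windows with Gstp2, so the division of reads between them is uncertain. Gstp2 and Gstp3 stayed at or below 3.14 FPKM. Gstk1, an enzyme of mitochondria and peroxisomes, was highest in control 4 (20.1 FPKM against 9.06 and 12.1), and its log2 fold change of -0.16 became 0.13 without that library. Gstz1, which acts in tyrosine breakdown, had a log2 fold change of -0.30 with an interval of -0.60 to 0.00.

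The GST transcripts as a whole were thus made up differently in the groups. The summed FPKM of all GST genes was 1481, 1213 and 1789 in controls 1, 2 and 4 and 1197, 1302, 1257 and 1346 in Foxl2-LSL-labelled libraries 1 to 4, and the groups overlapped. The mu class made up 45.6%, 48.2% and 61.3% of this sum in the controls and 21.5%, 22.7%, 24.8% and 19.9% in the others. Mean shares over the 3 controls and over the 4 others (± SD) were 3.26% ± 0.896 and 6.75% ± 0.875 for the theta class and 2.41% ± 0.538 and 7.77% ± 0.972 for the alpha class. For the omega class they were 27.8% ± 6.57 and 44.2% ± 4.51. Gsta4 was at 0.163 ± 0.0395 times the level of Gstm7 in controls and 2.75 ± 0.207 times in the others. The 5 inner mu genes summed to 528 to 1033 FPKM in controls and 199 to 243 FPKM in the others, while the 2 end genes summed to 56.3 to 64.5 and 58.3 to 69.2 FPKM. These shares are given as a description, with no test.

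**Figure D3:**
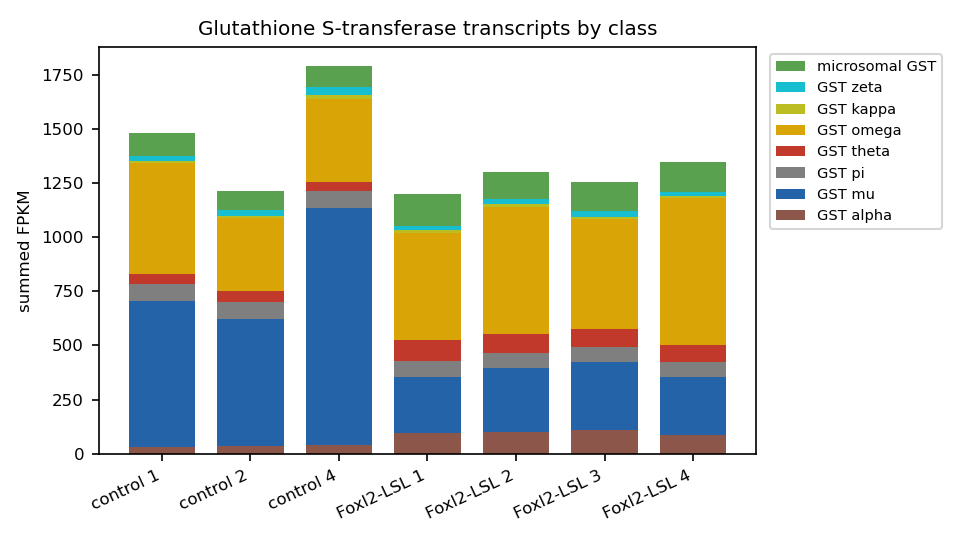
Summed FPKM of the GST genes in each library, stacked by class. The mu class takes 45.6% to 61.3% of the bar in the 3 controls and 19.9% to 24.8% in the 4 Foxl2-LSL-labelled libraries, while the height of the bars overlaps between the groups.

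The enzymes that make glutathione did not move together. Gclc, the catalytic subunit of the rate-limiting ligase, was at 30.2, 28.4 and 33.1 FPKM in controls 1, 2 and 4 and at 15.2, 20.9, 16.0 and 13.8 FPKM in Foxl2-LSL-labelled libraries 1 to 4. Its log2 fold change was -0.87 (SE 0.13; limma with Benjamini-Hochberg adjusted p 0.00235), with no overlap. The modifier subunit Gclm was at 13.3, 13.3 and 13.9 FPKM and at 10.02, 8.17, 9.37 and 9.93 FPKM. It fell by 0.49 on the log2 scale (SE 0.08; limma with Benjamini-Hochberg adjusted p 0.00325), again without overlap. The ratio of Gclc to Gclm was 2.13 to 2.39 in controls and ranged from 1.39 to 2.56 in the others, where library 2 lay above the controls and the other 3 below.

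Gss, which completes the tripeptide, was at 9.96, 9.80 and 8.92 FPKM in controls and at 16.6, 10.9, 13.96 and 15.3 FPKM in the Foxl2-LSL-labelled libraries. Library 2 was close above the controls and the others well above, and Gss rose by 0.51 on the log2 scale (SE 0.13; limma with Benjamini-Hochberg adjusted p 0.0192). Its call was lost without control 2 (0.53, adjusted p 0.0522) and without Foxl2-LSL 4 (0.47, adjusted p 0.0528; limma, Benjamini-Hochberg). Gsr, the reductase, was at 46.1, 38.0 and 28.5 FPKM in controls and at 39.7, 26.8, 27.1 and 36.5 FPKM in the others. The groups overlapped over most of their range (log2 fold change -0.20, interval -0.65 to 0.26).

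**Figure D4:**
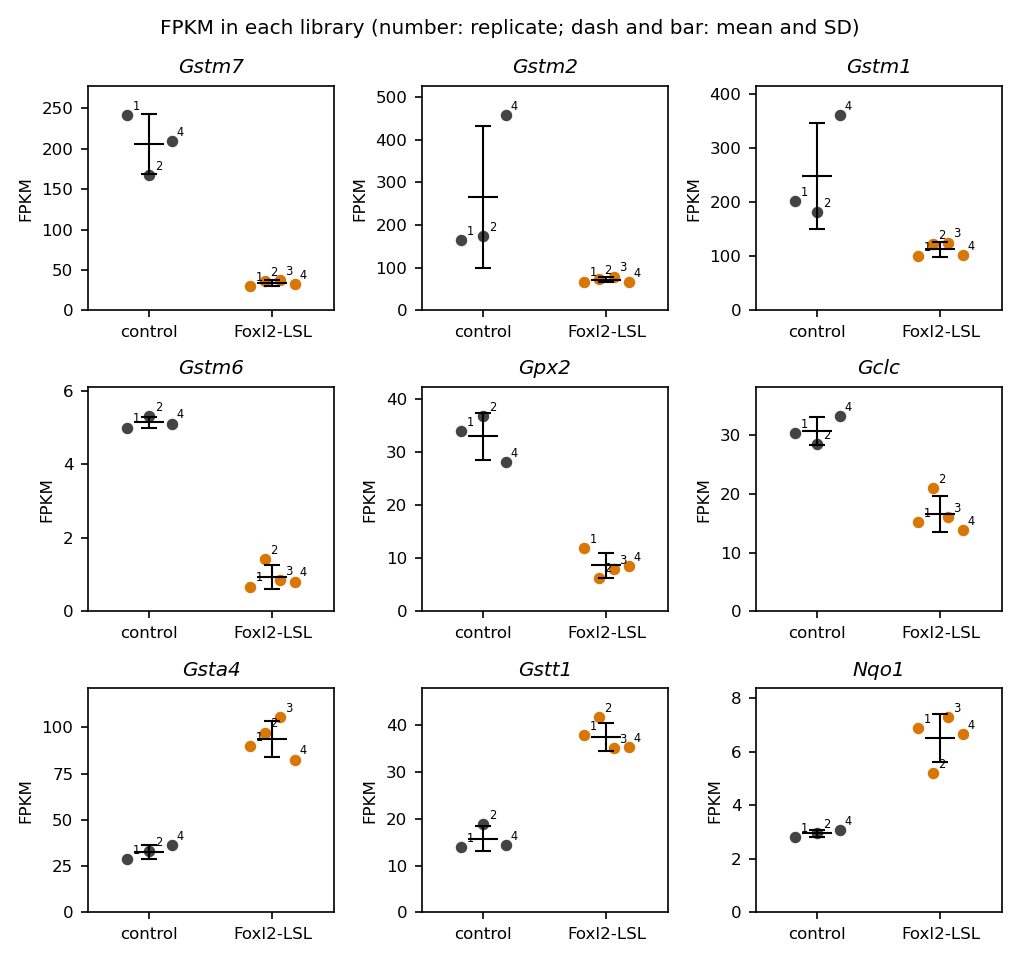
FPKM in each library for 9 members, with the replicate number beside each point and the mean and SD of each group; every axis starts at 0. Control 4 is the highest point for Gstm2 (457 FPKM) and Gstm1 (361 FPKM), and the groups do not overlap for any of the 9.

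Of the glutathione peroxidases, Gpx1 to Gpx4 are selenoenzymes. Gpx2, best known from epithelium of the gut, fell from 33.9, 36.7 and 28.1 FPKM in controls 1, 2 and 4 to 11.8, 6.34, 7.88 and 8.51 FPKM in Foxl2-LSL-labelled libraries 1 to 4. All controls were above all others, and the control mean was 3.81 times that of the second group (log2 fold change -1.84, SE 0.18; limma with Benjamini-Hochberg adjusted p 0.000535). The summed FPKM of 6 luminal and simple epithelium markers was 543 to 1196 in controls and 939 to 1329 in the others. Among them Krt18 was called higher (means of 123 FPKM in controls and 212 FPKM in the others), and the rest did not pass. The sum of 4 gland markers was 26.4 to 41.9 FPKM in controls and 4.66 to 6.97 in the others, with Foxa2 and Cxcl15 called lower. Of the gland markers, Prss29 stayed at trace level, and Spink1 was at 0 FPKM in every library of both groups except control 4 (3.86 FPKM). The part of gland cells in the fall of Gpx2, Gclc or the mu class was not tested. Of the Gpx2 windows, 18.9% also occur in the pseudogene Gpx2-ps1.

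Gpx1, the abundant cytosolic peroxidase, was at 172, 145 and 163 FPKM in controls and at 277, 153, 215 and 252 FPKM in the others. Foxl2-LSL 2 lay among the controls and the other 3 above them, and the log2 fold change of 0.45 did not pass (SE 0.19; limma with Benjamini-Hochberg adjusted p 0.0964). It passed without Foxl2-LSL 2, at 0.62 (limma with Benjamini-Hochberg adjusted p 0.00942). The ratio of Gpx1 to Gpx2 was 3.94 to 5.81 in controls and 23.4 to 29.6 in the others. Gpx3, the secreted plasma enzyme, was at 18.9, 33.4 and 37.5 FPKM in controls and at 29.5, 43.1, 31.9 and 36.1 FPKM in the others, a log2 fold change of 0.27 (interval -0.27 to 0.81) that became -0.024 without control 1. The 5 adipocyte markers summed to 0.377 to 52.6 FPKM in controls and 1.58 to 140 FPKM in the others, and their part in Gpx3 was not tested.

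Gpx7, a peroxidase of the endoplasmic reticulum, was at 10.1, 12.9 and 21.9 FPKM in controls and at 8.22, 6.10, 7.49 and 8.29 FPKM in the others. The groups did not overlap, but control 4 was well above the rest (log2 fold change -0.85, SE 0.23; limma with Benjamini-Hochberg adjusted p 0.0224). Without control 4 the change was -0.55 (adjusted p 0.0196), and the call was lost without Foxl2-LSL 2 (-0.76, adjusted p 0.0548) or Foxl2-LSL 3 (-0.85, adjusted p 0.0549; limma, Benjamini-Hochberg). Its close relative Gpx8 was level, with a log2 fold change of -0.06 and an interval of -0.33 to 0.21, which turned to 0.052 without control 4. Gpx4, the phospholipid hydroperoxidase, had non-overlapping groups but a small change that did not pass (-0.22, interval -0.43 to -0.01), and much of its sequence is shared with a pseudogene: 51.4% of its windows occur in Gpx4-ps2. Gpx5 and Gpx6 had 1 fragment and 0 fragments over all libraries.

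Of the 6 peroxiredoxins, which reduce peroxides, 1 was higher and 1 lower. Prdx1, the most abundant of them, was at 344, 294 and 273 FPKM in controls and at 292, 208, 234 and 252 FPKM in the others, with a log2 fold change of -0.30 and an interval of -0.61 to 0.00. It passed in the fit without Foxl2-LSL 1 (-0.39; limma with Benjamini-Hochberg adjusted p 0.0446). Prdx4, the family member of the endoplasmic reticulum, was at 51.4, 49.5 and 43.7 FPKM in controls and at 37.0, 35.1, 38.8 and 34.0 FPKM in the others. It fell by 0.40 on the log2 scale without overlap (SE 0.08; limma with Benjamini-Hochberg adjusted p 0.00683). Prdx5 rose from 46.2, 48.9 and 46.7 FPKM to 86.2, 58.8, 74.1 and 72.8 FPKM, also without overlap (log2 fold change 0.60, SE 0.12; limma with Benjamini-Hochberg adjusted p 0.00646). Prdx2, Prdx3 and Prdx6 did not pass, at log2 fold changes of -0.04, 0.04 and -0.25, and the sign of the first of these turned with median centring, quantile normalization and array weights.

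Txn1, the cytosolic thioredoxin, was at 157, 130 and 135 FPKM in controls and at 129, 86.8, 105 and 108 FPKM in the others. The lowest control and the highest Foxl2-LSL-labelled library were almost level, and the log2 fold change of -0.40 lay at the threshold itself (SE 0.14; limma with Benjamini-Hochberg adjusted p 0.04997). Its call was lost in 13 of 18 alternatives, which include every fit that left out a single library except the one without Foxl2-LSL 1 (-0.49). In those that lost it the change was -0.45 to -0.30, and the adjusted p over the alternatives was 0.0199 to 0.141 (limma, Benjamini-Hochberg). The mitochondrial Txn2 was steady in controls, at 77.1 to 78.1 FPKM, and lay at 54.5 to 77.2 FPKM in the others (log2 fold change -0.27). It passed without Foxl2-LSL 1, at -0.35 (limma with Benjamini-Hochberg adjusted p 0.0208).

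The thioredoxin reductases are selenoenzymes that keep thioredoxin reduced. Txnrd1, the cytosolic form, was at 56.2, 44.7 and 37.3 FPKM in controls and at 38.1, 29.7, 37.3 and 40.9 FPKM in the others, with overlapping groups (log2 fold change -0.32, interval -0.68 to 0.04). Without control 4 it passed, at -0.46 (limma with Benjamini-Hochberg adjusted p 0.0423). Txnrd2, the mitochondrial form, varied least, at 6.999 to 7.67 FPKM in controls and 7.49 to 7.77 FPKM in the others. Txnrd3 rose by 0.43 on the log2 scale (4.04 ± 0.726 FPKM in 3 controls and 5.77 ± 0.860 FPKM in the 4 others, SD; limma with Benjamini-Hochberg adjusted p 0.0363). This call was lost without control 1 (0.35), control 2 (0.38), Foxl2-LSL 3 (0.35) or Foxl2-LSL 4 (0.40), where the adjusted p was 0.0867 to 0.113 by limma with Benjamini-Hochberg adjustment.

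No superoxide dismutase passed the threshold, and neither did catalase. Sod1, the copper and zinc enzyme of the cytosol, was at 243, 216 and 218 FPKM in controls and at 247, 237, 260 and 232 FPKM in the others, a log2 fold change of 0.11 with an interval of -0.07 to 0.30. Sod2, the manganese enzyme of mitochondria, was at 11.6, 12.0 and 12.0 FPKM in controls and at 15.5, 13.9, 13.0 and 13.1 FPKM in the others. Its groups did not overlap, but the change was small (log2 fold change 0.21, interval 0.03 to 0.39; limma with Benjamini-Hochberg adjusted p 0.0636). It passed after median centring and quantile normalization. Sod3, the secreted form, varied widely within the controls, at 1.86, 4.54 and 7.80 FPKM, and lay at 5.42, 5.72, 7.56 and 5.58 FPKM in the others. Its log2 fold change was 0.44 (interval -0.34 to 1.22) and passed only without control 4 (0.82; limma with Benjamini-Hochberg adjusted p 0.0385). Cat, the peroxisomal catalase, was at 19.8, 21.1 and 26.1 FPKM in controls and at 20.7, 27.7, 27.4 and 22.1 FPKM in the others (log2 fold change 0.12, interval -0.19 to 0.44).

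Nqo1 and Hmox1, both textbook NRF2 targets, moved in opposite directions. Nqo1, the quinone reductase, was at 2.82, 2.96 and 3.06 FPKM in controls and at 6.88, 5.21, 7.28 and 6.66 FPKM in the Foxl2-LSL-labelled libraries. It was higher in all 4 than in any control, with a ratio of means of 2.21 (log2 fold change 0.92, SE 0.11; limma with Benjamini-Hochberg adjusted p 0.000975). Hmox1, which breaks down heme, was at 8.12, 7.11 and 6.44 FPKM in controls and at 6.11, 3.56, 4.61 and 4.81 FPKM in the others. It fell by 0.52 on the log2 scale, although Foxl2-LSL 1 was close to control 4 (SE 0.15; limma with Benjamini-Hochberg adjusted p 0.0273). The call of Hmox1 was lost without control 1 (-0.45), control 2 (-0.53), Foxl2-LSL 3 (-0.52) or Foxl2-LSL 4 (-0.53), at an adjusted p of 0.0576 to 0.0800 (limma, Benjamini-Hochberg). The 4 globin genes looked at, marks of red blood cells, were listed at 0 in all libraries.

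The core of the antioxidant response element, TGACNNNGC, was searched on both strands in the 250 bases before each RefSeq start on GRCm38.p6. Of the 47 members with an entry (Gclc, Gsr, Gsta4, Gstt2, Hmox1, Prdx6 and Sod3 had none), 8 held it in 1 of their starts, or 8 of 61 starts, against 10.2% of all 32851 starts of the same length. These 8 are shown with 12 bases on each side, the core in capitals, so that its place can be set beside the changes above; where the core lies on the opposite strand, the capitals are its complement read backwards.
Gclm, chr3:122245411-122245443, plus strand: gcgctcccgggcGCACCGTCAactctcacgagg
Prdx1, chr4:116685454-116685486, plus strand: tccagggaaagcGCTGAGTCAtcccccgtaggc
Txnrd1, chr10:82859102-82859134, plus strand: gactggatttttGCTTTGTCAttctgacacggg
Gstm7, chr3:107931723-107931755, minus strand: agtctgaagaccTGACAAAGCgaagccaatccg
Gstm5, chr3:107895800-107895832, plus strand: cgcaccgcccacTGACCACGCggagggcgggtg
Mgst1, chr6:138140459-138140491, plus strand: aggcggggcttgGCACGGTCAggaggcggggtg
Gsta3, chr1:21240452-21240484, plus strand: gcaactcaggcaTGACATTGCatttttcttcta
Sod1, chr16:90220694-90220726, plus strand: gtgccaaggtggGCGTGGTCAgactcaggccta
Genes with the core lay on both sides: Gclm and Gstm7 fell, Mgst1 and Gsta3 rose, and Prdx1, Txnrd1, Gstm5 and Sod1 did not pass. The Gstm7 core belongs to another start of that gene than the one printed for the mu cluster.

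Around these enzymes, 77 further genes of the pathway were listed by role, of which 70 were tested; 18 were higher and 7 lower past the threshold. Their 35.7% called lay beside 40.6% of all genes tested, with 25.7% higher beside 16.7% and 10% lower beside 23.9%. The counts by list that follow are to be read beside the same shares of all genes. The count of 25 fell to 16 without control 2, 15 without Foxl2-LSL 3 and 16 without Foxl2-LSL 4. Of the 7 genes of NRF2 control, 3 were higher and 0 lower. Nfe2l2, which encodes NRF2, was at 27.9, 28.9 and 26.6 FPKM in controls and at 37.5, 37.6, 37.0 and 36.2 FPKM in the others, with little spread in either group (log2 fold change 0.40, SE 0.06; limma with Benjamini-Hochberg adjusted p 0.00202). Mafk, a small MAF partner, and Sqstm1, an adaptor that binds KEAP1, rose by 0.35 and 0.31. Mafk lost its call in 1 alternative and Sqstm1 in 2. Keap1, the NRF2 inhibitor, was level at a log2 fold change of -0.04.

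In cysteine supply 2 of 7 genes were higher and 0 lower. Slc7a11, the cystine transporter, was at 19.1, 20.1 and 5.55 FPKM in controls 1, 2 and 4 and at 28.6, 34.4, 36.0 and 25.7 FPKM in the Foxl2-LSL-labelled libraries. Control 4 was far below the other controls, and the log2 fold change of 1.18 (SE 0.39; limma with Benjamini-Hochberg adjusted p 0.0440) lost its call without any single Foxl2-LSL-labelled library (1.11 to 1.27). Without control 4 the change of Slc7a11 was 0.63, and with array weights 0.66. Cbs, which commits homocysteine to cysteine, was at 2.32, 28.7 and 13.1 FPKM in controls and at 41.7, 60.6, 54.1 and 33.9 FPKM in the others. Its controls were far apart, and its call (log2 fold change 2.09; limma with Benjamini-Hochberg adjusted p 0.0362) was likewise lost without any single Foxl2-LSL-labelled library (1.96 to 2.24). The change of Cbs was 1.21 without control 1 and 1.06 with array weights.

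Among 10 tested genes of glutathione breakdown and recycling, 4 were higher and 1 lower. Anpep, an aminopeptidase that splits cysteinylglycine, rose by 0.77 on the log2 scale, with means of 333 ± 35.3 FPKM over the 3 controls and 571 ± 67.8 FPKM over the 4 others (SD; limma with Benjamini-Hochberg adjusted p 0.00225). Ggt7 fell by 0.72 and Lap3 rose by 0.42. Ggt7 lost its call in 2 alternatives and Lap3 in 9. Of 14 genes of thiol repair, 1 was higher and 1 lower. Txnip, the inhibitor that binds thioredoxin, was at 130, 111 and 90.0 FPKM in controls and at 368, 514, 395 and 315 FPKM in the others. All 4 were far above the controls, at a log2 fold change of 1.83 (SE 0.18; limma with Benjamini-Hochberg adjusted p 0.000540). Sesn2 fell by 0.82, a call lost in 7 alternatives, and 12 genes of this list did not pass, among them Srxn1, which repairs overoxidized peroxiredoxins (-0.11), and the glutaredoxins.

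Of 7 genes for conjugate export and aldehyde use, 3 were lower and 0 higher: Abcc4 (-0.69), Adh5 (-0.57) and Abcc1 (-0.36), the last of which exports glutathione conjugates. The calls of Abcc4 and Adh5 were lost in 10 and 5 alternatives, and without control 4 their changes were -0.37 and -0.35. Of 6 selenoprotein supply genes, 2 were higher and 2 lower. Selenop, the selenium carrier of plasma, rose from 112 ± 12.5 to 197 ± 26.9 FPKM (SD; log2 fold change 0.81; limma with Benjamini-Hochberg adjusted p 0.00226), while Sephs1, related to selenophosphate synthetase, fell by 0.44. Sepsecs, which forms selenocysteine on its transfer RNA, rose by 0.38, a call lost in 5 alternatives. NADPH supply had 2 of 7 genes higher and 0 lower, G6pdx (0.59) and Idh1 (0.65, lost in 2 alternatives). Of 12 genes for superoxide sources and metal binding, 4 were higher and 0 lower, among them Duox2 (0.95), an oxidase that makes hydrogen peroxide, Blvrb (0.89), a biliverdin reductase, and Cyba (0.70, lost in 1 alternative), a subunit of NADPH oxidase. Duox2, at a mean of 0.379 FPKM in controls and 1.65 FPKM in the others, passed the filter only through the group where it was high, so its call is no support for a difference.

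**Figure D5:**
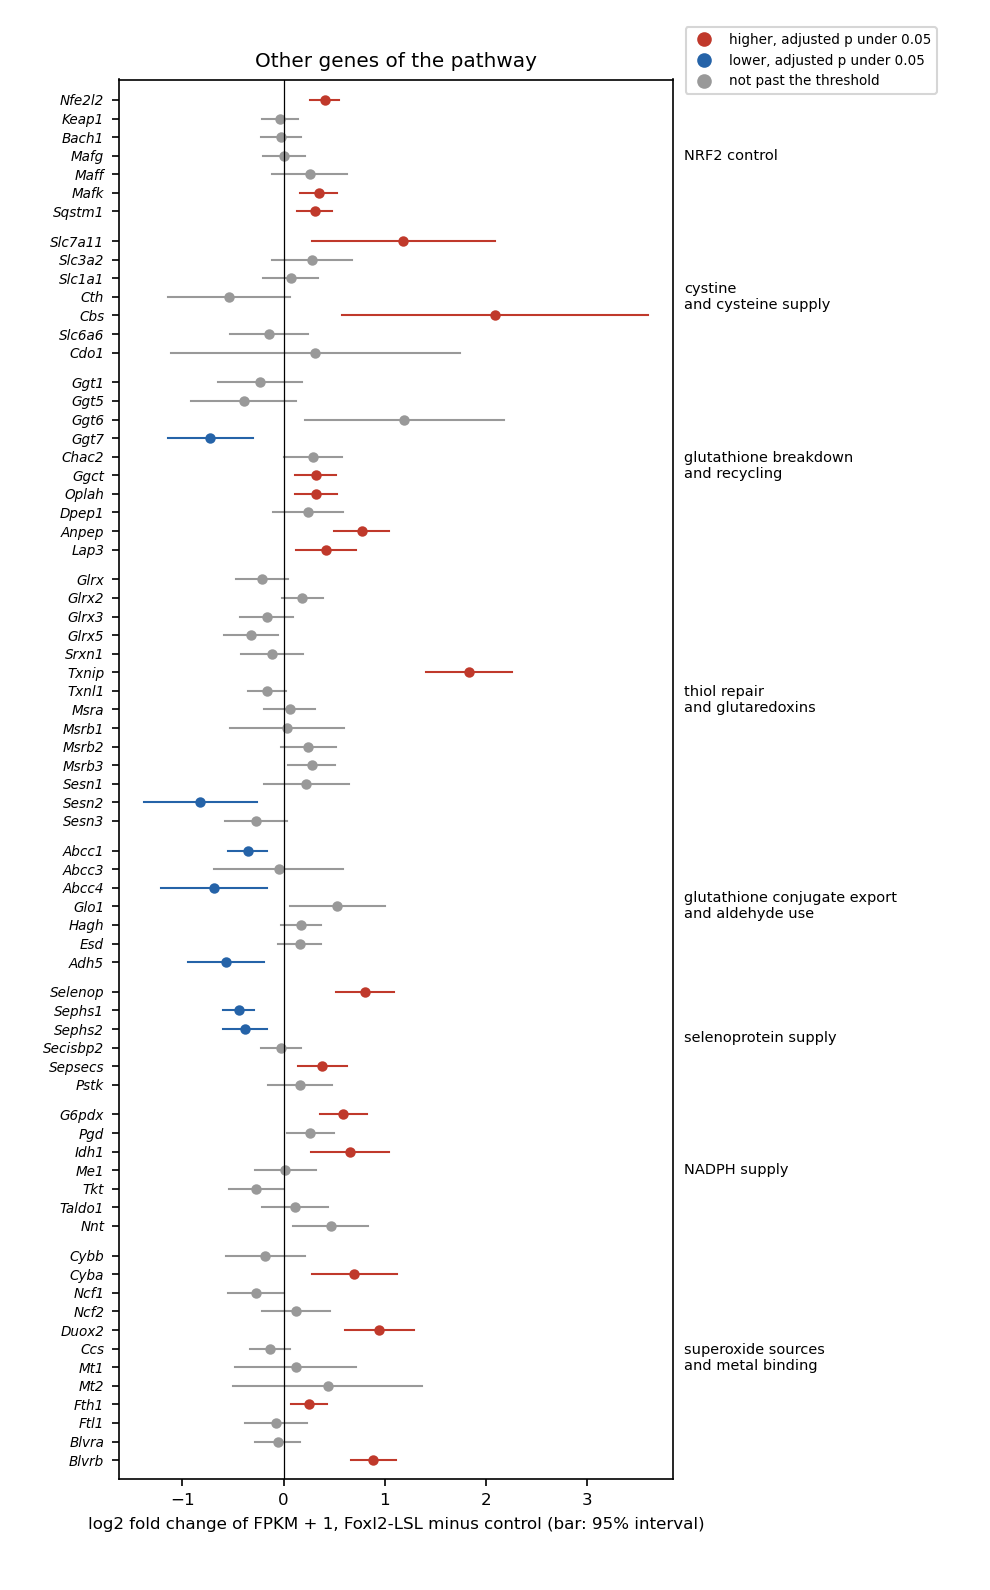
Log2 fold change of FPKM + 1 (Foxl2-LSL-labelled minus control) with its 95% interval for the 70 further pathway genes tested, by role and coloured by the limma call. Txnip (1.83) and Cbs (2.09) lie farthest to the right, Cbs with a wide interval, and Sesn2 (-0.82) lies farthest to the left among called genes.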

How the data were processed

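RNA from whole uterus of 7 mouse libraries was extracted with TRIzol, per the labels' protocols. The submitters' processing notes name mm10, STAR 2.5.2b, featureCounts 1.5.0-p1 from Subread and DESeq2 1.12.4, with no role or order. The authors deposited 1 table of FPKM with a column per library and the gene length in bases, per the file headers. The annotation, use of strand and treatment of reads that match several genes are not given in the sources used here. Fragments behind each value were recovered from FPKM times length (100% of 1653 to 1832 low values per library came within 0.1 of a whole number), and no library was found to be a copy of another.

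Genes with a mean of at least 1 FPKM (13334, Foxl2 kept whatever its level) were compared as log2(FPKM + 1) with limma 3.58.1 in R 4.3.3 (eBayes with trend), with all 7 libraries in 1 fit and a threshold of 0.05 after Benjamini-Hochberg adjustment. On simulated data with 13334 genes, of which 200 were changed by 1.5 (log2), the step called 185 of the changed genes with the right sign and 9 unchanged ones. The simulated noise was independent between genes, and far fewer genes were changed than were called in the real libraries. These counts therefore need not hold for the deposited data. Positions came from GENCODE M21 and sequences from RefSeq, both on GRCm38, the assembly of mm10. Tables and figures were made with numpy 2.4.6, matplotlib 3.10.9 and pandas 2.3.3 under Python 3.11.15.

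The members and lists were chosen with earlier results of these data known, though the rule for the members uses gene symbols and no measured value. Values in every library were given for members past the threshold with a change of at least 1 (log2), and for Gclc, Gclm, Gss, Gsr, Gpx1, Gpx3, Prdx1, Txn1, Txnrd1, Cat, Sod1, Sod2, Sod3, Nqo1 and Hmox1; some others were added after their values were seen. Of each further list, up to 3 called genes with the largest change were named; Keap1 and Srxn1 were added in the same way. Alternatives were another pseudocount, other filters and scalings, no trend, array weights and limma-voom on the recovered fragments. Further ones were a replicate block, its 6 libraries without the block, and each library left out in turn. The 6 libraries without the block are those of the fit without Foxl2-LSL 3, so counts of alternatives hold that fit under both names.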

Additional observations from a re-analysis of the deposited data

Results flagged for a closer look

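Among the 47 members tested, Sod3 had 1 library far from the rest of its group: Foxl2-LSL 3, at 7.56 FPKM, lay apart from the other 3, of which the nearest was at 5.72 FPKM, with a gap of 0.858 of the group's range. About 1 in 20 groups of 4 shows such a gap by chance. The adipocyte marker sum was also highest in that library, at 140 FPKM, and its part in the value of Sod3 was not tested.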

How the results depend on the processing

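Of the 21 members past the threshold, 14 kept their call and direction in each of the 18 alternatives in which they were tested (Gstm6 and Nqo1 were dropped by a filter at a mean of 5 FPKM). The other 7 were Gss, Gsta3, Gstt3, Gpx7, Txn1, Txnrd3 and Hmox1. Leaving out a library moved the count of all genes past the threshold from 5409 to between 3853 and 5328, that of further pathway genes from 25 to between 15 and 35, and the log2 fold change of Foxl2 from 0.06 to between -0.10 and 0.28; with array weights the last was -0.15. The labels use the numbers 1, 2 and 4 in both groups, but no label says that they mark the same litter, day or batch. Same-numbered libraries deviated from their group means with correlations of 0.228, -0.0306 and -0.112. With so few libraries these values cannot show whether same-numbered libraries share more than a number. With the replicate block, 3243 genes, 13 pathway genes, 7 higher members and 8 lower members passed; the same 6 libraries without it gave 3975, 15, 7 and 8. Members that changed sign were never past the threshold. Gstm4 was -0.0013 after rescaling to a common sum, -0.052 with the replicate block or on those 6 libraries without it, and -0.052 to 0.076 with a library left out. Prdx2 was 0.016 with median centring, 0.058 with quantile normalization, 0.046 with array weights, and -0.12 to 0.039 with a library left out. The ranges with a library left out were -0.024 to 0.45 for Gpx3, -0.17 to 0.052 for Gpx8, -0.40 to 0.13 for Gstk1, -0.16 to 0.32 for Gstp3 and -0.028 to 0.12 for Prdx3. For all of these, the cause was not tested. Of the genes that passed, the higher ones made up 41.1% for FPKM as deposited, 50.4% after median centring and 49.2% after quantile normalization; these set 12 and 13 members higher and 10 and 12 lower. The median log2 fold change of the members stayed between -0.04 and 0.09. Depth limits Gstm3, Gstt4, Gsto2, Mgst2, Gsta1, Gpx5 and Gpx6, which had at most 71 fragments in a library.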
